A study of Macaca mulatta with 12 samples.

Results

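CNTNAP2 was represented by 5 of the 52766 probe sets that remained on a rhesus macaque expression array after removal of the control sets. A probe set is a group of short array probes whose brightness is combined into 1 value, and all 5 were taken because the probe-to-gene table names that gene, 1 of 14132 genes it names, for them. The gene itself was chosen from measured values, because 1 of its probe sets, MmugDNA.40181.1.S1_s_at, lay higher under every hormone regimen than under placebo. The differences of that probe set between groups are therefore given as a description, without a test. A pair of the other sets has identifiers that begin with MmuAffx and end in S1_at and in A1_at, and these are called the MmuAffx S1 set and the MmuAffx A1 set. Of the 5 probe sets, 4 were bright enough to enter the fit across 26383 probe sets, and the MmuAffx A1 set was not.

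The 12 arrays each came from the dorsal raphe block of 1 female rhesus monkey (Macaca mulatta), the midbrain tissue that holds many of the forebrain-projecting serotonin neurons. There were 4 groups of 3 monkeys. The placebo monkeys carry the code OVX in their titles; the other monkeys received estrogen (E), estrogen and progesterone (E+P) or progesterone (P). Steroids were given from Silastic capsules placed under the skin near the shoulder blades for a month before death. For the progesterone group the title code is EP but the description code is P, and the treatment word in the title was followed. The labels give neither the monkeys' ages nor the steroid doses, and do not say whether the hormone-treated monkeys were ovariectomized.

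CNTNAP2 encodes Caspr2, a single-pass membrane protein of the neurexin superfamily with a large extracellular part and a short cytoplasmic tail. In myelinated axons Caspr2 sits in the juxtaparanodes, the stretches beside the node of Ranvier just beyond the paranodal junctions, where it binds contactin-2 and holds Shaker-type potassium channels in place through scaffold proteins. It also occurs at synapses and axon initial segments, and inherited loss of the gene in humans causes a syndrome of epilepsy, language regression and autistic features. Its transcript is found mainly in neurons.

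The tissue label was checked on serotonin neuron markers fixed as a list. FEV, a transcription factor of serotonin neurons, had a mean log2 intensity of 9.63 ± 0.45 (SD, n = 3) under placebo, and TPH2, which makes the first step of brain serotonin synthesis, 7.24 ± 0.69 (SD, n = 3). Neither TPH2 nor FEV passed the threshold in any comparison. The 5 tested markers of the list had median differences from placebo of -0.02 under E, 0.02 under E+P and -0.46 under P. All 5 were lower under P than under placebo, whereas 46.7% of all probe sets were higher. The median deposited intensity of an array was between 71.1 and 98.6. On the first principal component (23.5% of the variance) the first arrays of placebo, E and E+P stood apart, at -51.6 to -44.0 against -1.64 to 29.0 for the others. The second component (17.2%) placed the progesterone group at -54.5 to -14.1 and the remaining arrays at 0.50 to 20.4. The 3 progesterone arrays also had the lowest difference between 3′ and 5′ control probe sets of the elongation factor EF1A. This difference is a measure of RNA integrity and labelling. It was -0.37 to -0.31 log2 under P, -0.03 to 0.07 under placebo, 0.12 to 0.74 under E and -0.08 to 0.65 under E+P. The E and placebo ranges thus did not overlap either. The same difference for ACTB was 0.66 to 1.23 under progesterone against 0.11 to 0.90 elsewhere, the opposite order with overlap. For GAPDH it was 0.11 to 0.59 against 0.34 to 1.11. The E and placebo ranges overlapped for ACTB and for GAPDH. Whether these control differences bear on the CNTNAP2 values was not tested.

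The probe set that led to the choice of CNTNAP2, MmugDNA.40181.1.S1_s_at, was dimmer in every placebo array than in any hormone array. Its suffix _s_at is the manufacturer's mark for a set whose probes match more than 1 transcript. The deposited intensities of the 3 placebo arrays were 251, 221 and 275. Those of the estrogen arrays were 725, 623 and 574, those of the estrogen and progesterone arrays 556, 645 and 692, and those of the progesterone arrays 641, 409 and 319. The lowest hormone array was thus above the highest placebo array, and the progesterone arrays spread most.

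On the normalized log2 scale the placebo arrays read 7.99, 7.77 and 8.09 in this probe set, a mean of 7.95 ± 0.16 (SD, n = 3). The estrogen arrays read 9.57, 9.25 and 9.11, a mean of 9.31 ± 0.23 (SD, n = 3). With estrogen and progesterone the arrays read 9.18, 9.31 and 9.41, a mean of 9.30 ± 0.11 (SD, n = 3). Under progesterone alone they read 9.29, 8.70 and 8.33, a mean of 8.77 ± 0.49 (SD, n = 3). In order, the level was lowest under placebo, then under P, and close to equal under E+P and E. A gap of 0.24 log2 separated the highest placebo array from the lowest hormone array, a progesterone array.

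**Figure D1:**
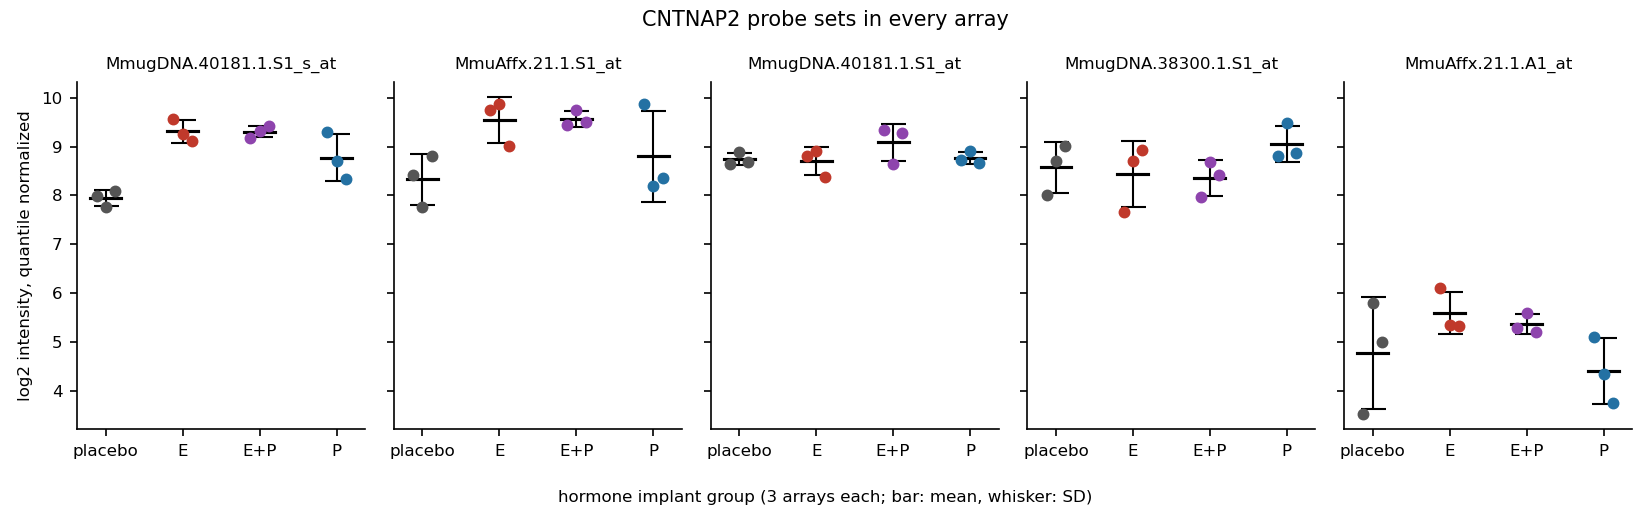
Normalized log2 intensity (vertical axis) of the 5 CNTNAP2 probe sets in the 12 arrays, by hormone group (E, estrogen; P, progesterone). Points are monkeys, horizontal bars are means and whiskers are SDs of 3 arrays; in MmugDNA.40181.1.S1_s_at all 9 hormone arrays lie above the 3 placebo arrays, while MmugDNA.40181.1.S1_at lies near 8.7 to 9.1 on average in every group.

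Relative to placebo, MmugDNA.40181.1.S1_s_at was 1.36 log2 units higher under estrogen (SE 0.23), which is 2.56-fold. The difference was 1.35 under estrogen and progesterone (2.55-fold) and 0.82 under progesterone alone (1.77-fold). Averaged over the 3 regimens it was 1.18 (SE 0.19; 2.26-fold). These 3 contrasts share the same placebo arrays. Counted over all probe sets tested, 0.269% (71 probe sets) had all 9 hormone arrays above all 3 placebo arrays, and 0.265% (70) had all 9 below. CNTNAP2 ranked 6 among those 71 by its mean difference and 7 by the gap between the groups. The 71 had a median difference of 0.53 and a highest of 1.81. They named 32 genes, and 0 of those genes had a further probe set with the same separation. How many of the 32 had a second tested probe set was not counted, and some, such as ACTL6B and ASL, had no other set. At a share of 0.269% a count of 0 is near that of all probe sets, so it says nothing particular about these genes.

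Across the whole array 0% of probe sets passed an adjusted p of 0.05 for estrogen against placebo, 0% for estrogen and progesterone and 0% for any hormone, by limma with Benjamini-Hochberg adjustment. At an unadjusted p below 0.05 there were 699, 1017 and 1204 probe sets. For progesterone against placebo 0.133% (35 probe sets) passed.

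In bulk tissue, a higher share of CNTNAP2-expressing cells and more transcript per cell cannot be told apart. The mean signal of 5 tested cerebellar neuron markers was also higher in some hormone arrays, at a mean log2 of 7.83 to 8.90 under E, 7.56 to 8.46 under E+P and 7.50 to 8.07 under P against 7.55 to 7.75 under placebo. Of those 5 markers, 5, 5 and 4 had higher means than placebo under E, E+P and P. PCP2 and FAT2, defining members of the full list, were too dim on average to be tested. PCP2 read 2.32 to 7.15 log2 in the hormone arrays against 2.59 to 3.95 under placebo, and FAT2 4.95 to 7.61 against 5.35 to 5.95. Both were highest in the second estrogen array and next highest in the second E+P array. The estrogen array with the highest cerebellar signal was the second. Without it the estrogen difference of the leading set was 1.38 against 1.36, and that of the MmuAffx S1 set was 1.04 against 1.21. The mean of 4 neuron markers was 11.51 to 11.58 under placebo, 11.43 to 11.88 under E, 11.52 to 11.67 under E+P and 11.32 to 11.70 under P. The part of these cell types in the CNTNAP2 difference was not tested.

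A second CNTNAP2 probe set, the MmuAffx S1 set, had similar means with a wider spread. Its placebo arrays read 8.42, 7.77 and 8.80 log2, a mean of 8.33 ± 0.52 (SD, n = 3). The estrogen arrays read 9.74, 9.87 and 9.01 (9.54 ± 0.46, SD, n = 3), and the estrogen and progesterone arrays 9.43, 9.75 and 9.50 (9.56 ± 0.17, SD, n = 3). In each of these groups all 3 arrays lay above all placebo arrays. Under progesterone the first array read 9.87 and the others 8.18 and 8.35, within the placebo range, with a mean of 8.80 ± 0.93 (SD, n = 3). Over the array as a whole, all 3 estrogen arrays lay above placebo in 3.56% of probe sets and all 3 estrogen and progesterone arrays in 4.68%; for all 3 progesterone arrays, as in the leading set, the share was 7.41%.

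The MmuAffx S1 set differed from placebo by 1.21 log2 under estrogen (SE 0.41, 95% confidence interval 0.30 to 2.12), with a limma adjusted p of 0.9997. The difference was 1.23 under estrogen and progesterone (0.32 to 2.14; limma adjusted p = 0.9988). Under progesterone it was 0.47 (-0.44 to 1.38; limma adjusted p = 0.774). None passed the threshold. Under E and E+P these adjusted p values equal the lowest of any probe set tested, so they reflect the whole array more than this set. Its unadjusted limma p was 0.0135 under E and 0.0123 under E+P. Over the array, 699 and 1017 probe sets had an unadjusted p below 0.05 in these comparisons. Without the first progesterone array the progesterone difference of this probe set was -0.06, so that array carried the positive value. In the leading probe set the progesterone difference without the same array was 0.56.

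The remaining bright probe sets of CNTNAP2 did not share the difference. MmugDNA.40181.1.S1_at, whose name carries the same design sequence as the leading set, read 8.65, 8.89 and 8.69 under placebo. It read 8.82, 8.90 and 8.37 under E, 9.33, 8.65 and 9.27 under E+P, and 8.73, 8.90 and 8.66 under P. The groups overlapped, with 4 of 9 hormone arrays above and 1 below the placebo range. Its difference from placebo was -0.05 under estrogen (95% confidence interval -0.50 to 0.41), 0.34 under estrogen and progesterone (-0.11 to 0.80) and 0.02 under progesterone (-0.43 to 0.48).

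MmugDNA.38300.1.S1_at, from another design sequence, read 8.01, 8.71 and 9.02 under placebo and 7.66, 8.70 and 8.92 under estrogen. It read 7.96, 8.68 and 8.42 under estrogen and progesterone, and 8.81, 9.48 and 8.87 under progesterone. Here 1 hormone array lay above and 2 lay below the placebo range. The differences from placebo were -0.15 (95% confidence interval -0.93 to 0.64), -0.22 (-1.0 to 0.56) and 0.48 (-0.31 to 1.26), and none passed the threshold. Its 3 lowest values, 7.66 to 8.01, belonged to the first arrays of placebo, E and E+P, the same arrays that stood apart on the first principal component.

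The dimmest probe set, the MmuAffx A1 set, had a mean log2 intensity of 5.04 over all arrays, at percentile 29.3 of all probe sets. For comparison, the highest mean among 42 control sets for bacterial transcripts was 5.60, and the median of their means was 3.20. The MmuAffx A1 set read 3.55, 5.80 and 5.01 under placebo and 6.10, 5.35 and 5.34 under E. It read 5.30, 5.61 and 5.21 under E+P, and 5.12, 4.35 and 3.77 under P. The groups overlapped, and at this brightness the probe set was not tested.

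**Figure D2:**
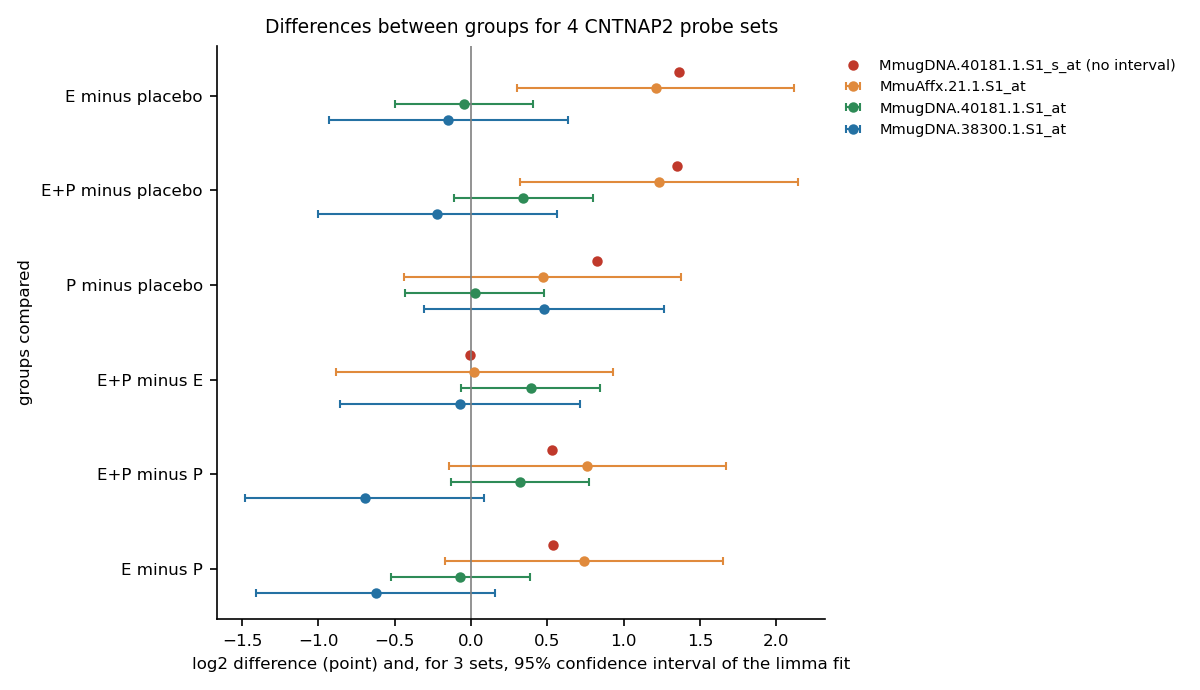
Log2 differences between groups (horizontal axis) for the 4 tested CNTNAP2 probe sets, with 95% confidence intervals of the limma fit for all but MmugDNA.40181.1.S1_s_at, the set that chose the gene. That set lies at 1.36 for estrogen minus placebo; the points of MmugDNA.40181.1.S1_at and MmugDNA.38300.1.S1_at lie at -0.05 and -0.15.

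The hormone regimens were then compared with each other. The hormone arrays of MmugDNA.40181.1.S1_s_at took part in its choice, so its values here are again a description. The mean with both steroids differed from that with estrogen by -0.01 log2. It was 0.53 higher than with progesterone alone, and the estrogen mean was 0.54 higher than the progesterone mean. The first progesterone array, at 9.29, lay inside the range of both estrogen-containing groups, and without it the latter 2 differences were 0.79 and 0.80. Over the whole array, 0% of probe sets passed the adjusted threshold for E+P minus E, 0.0834% for E+P minus P and 0.133% for E minus P.

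The differences between regimens in the MmuAffx S1 set were 0.02 for E+P minus E (95% confidence interval -0.89 to 0.93), 0.76 for E+P minus P (-0.15 to 1.67) and 0.74 for E minus P (-0.17 to 1.65). In MmugDNA.38300.1.S1_at the differences were -0.70 for E+P minus P (-1.48 to 0.09; limma adjusted p = 0.487) and -0.63 for E minus P (limma adjusted p = 0.609). In MmugDNA.40181.1.S1_at the 3 differences were 0.39, 0.32 and -0.07. None of these 3 probe sets passed the threshold in any comparison between regimens.

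Agreement among the CNTNAP2 probe sets was examined over the 12 arrays. The leading set and the MmuAffx S1 set correlated with Pearson r = 0.88 and Spearman rho = 0.80. Because the placebo arrays separate in both, the correlation was also taken over deviations from each group's mean, where r was 0.83 (exact within-group permutation test, two-sided p = 0.0332, 0.332 after adjustment over 10 pairs of probe sets) and rho 0.79 (exact permutation p = 0.0316, adjusted 0.316). Without the 2 arrays farthest from the median, r of the deviations was 0.75. Thus the arrays that read high for their group in one set tended to do so in the other, the first progesterone array among them, though the adjusted values do not pass 0.05. Of all 26383 probe sets tested, the MmuAffx S1 set was at rank 3 by Pearson and rank 36 by Spearman correlation with the leading set. The leading set itself held rank 1, and both ranks include the separation of placebo from hormone.

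The leading set and MmugDNA.40181.1.S1_at, in contrast, correlated with r = 0.25 over the arrays and 0.09 over the deviations. Subtracting the second from the first within each array gave -0.79 ± 0.28 under placebo, 0.61 ± 0.23 under E, 0.22 ± 0.41 under E+P and 0.01 ± 0.48 under P (log2, SD, n = 3). This difference carries no level of its own. The leading set was chosen for placebo values below its hormone values, so the low placebo difference follows in part from that choice. It is a description and no evidence of its own that the sets changed unequally. Between the leading set and the MmuAffx S1 set the same subtraction gave means of -0.38, -0.23, -0.26 and -0.03. With MmugDNA.38300.1.S1_at the leading set had r = -0.26, and with the MmuAffx A1 set r = 0.50.

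For background, 9381 pairs of tested probe sets that share a gene, in 3769 genes, had a median r of 0.20 (quartiles -0.09 and 0.48). The correlation of deviations from the group means, which leaves out the separation of the groups, had a median of 0.20 in these pairs and was 0.83 or more in 4.52% of them. Pairs made from 1 design sequence, as both MmugDNA.40181 sets are, numbered 536 in 506 genes and had a median r of 0.45 (quartiles 0.12 and 0.71). Disagreement between probe sets of a gene was thus common on this array.

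**Figure D3:**
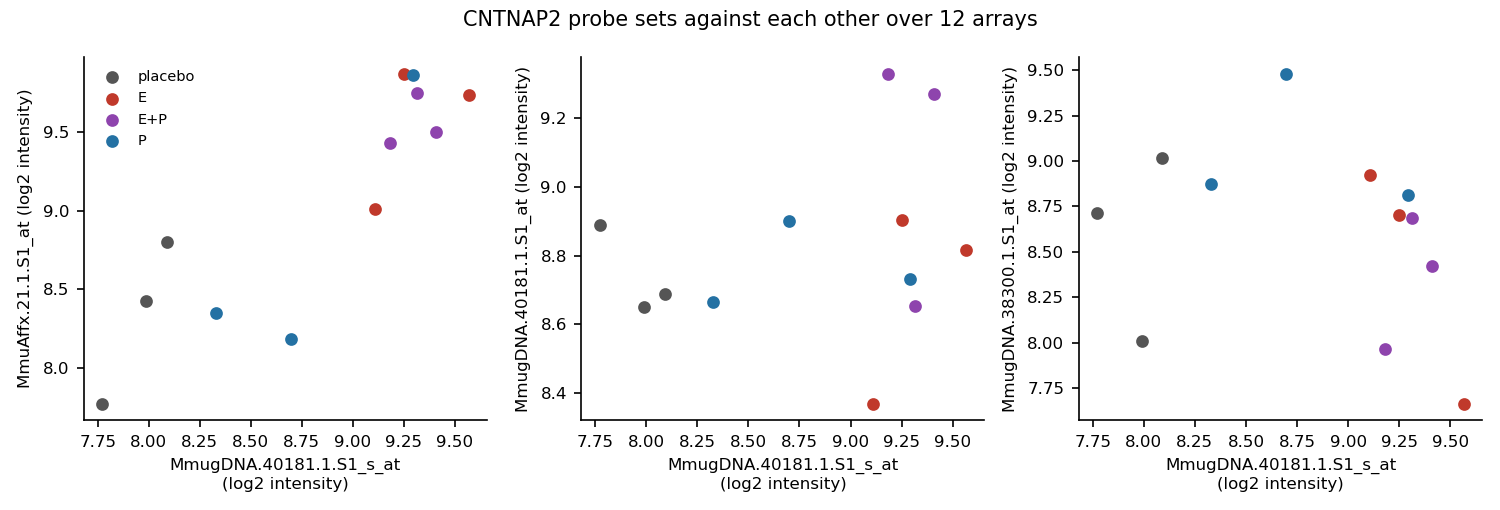
Log2 intensity of the leading CNTNAP2 probe set (horizontal axis) against each of the other 3 tested sets (vertical axis) in the 12 arrays, colored by group. The MmuAffx S1 set follows the leading set (r = 0.88), whereas MmugDNA.40181.1.S1_at (r = 0.25) and MmugDNA.38300.1.S1_at (r = -0.26) do not.

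Genes that work with CNTNAP2 were read from 6 lists, each gene on its brightest probe set. In each list, 0 of the tested genes passed the threshold in any of the 7 comparisons. Over all probe sets tested the share that passed was 0% to 0.133% by comparison, so a count of 0 is near that share. In the CNTNAP family, 3 of 4 other members were tested, with median differences from placebo of 0.39 under E, 0.08 under E+P and 0.19 under P. Over all probe sets tested the medians were -0.01, -0.01 and -0.02. Without the first placebo array the family medians were -0.09, -0.24 and -0.29. CNTNAP1, which encodes the paranodal protein Caspr, read 4.83, 7.82 and 8.14 under placebo and 7.30, 4.30 and 4.39 under progesterone. The difference of -1.60 (SE 0.88; limma adjusted p = 0.589) was within that spread, and 0 of 9 hormone arrays lay above the placebo range. CNTNAP1 differed by 0.76 under E and 0.81 under E+P, but by -0.29 and -0.24 without the first placebo array and by 1.36 and 1.41 without the third.

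CNTNAP4, a family member found in interneurons, differed by -0.05 under E, -0.09 under E+P and 0.34 under P (SE 0.20). CNTNAP5 differed by 0.39, 0.08 and 0.19 (SE 0.38). CNTNAP3 had no probe set with that name. None of the tested relatives lay above placebo in all 9 hormone arrays, a pattern of 0.269% of all probe sets tested. A count of none is near that share. The leading CNTNAP2 set was chosen for this pattern, so the count does not set it apart from the family.

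Contactins are immunoglobulin-type adhesion proteins anchored in the outer membrane leaflet, and several pair with Caspr proteins. CNTN2, the partner of Caspr2 at the juxtaparanode, had no probe set with that name. CNTN1, the partner of Caspr at the paranode, differed by -0.32 under E, 0.13 under E+P and -0.58 under P (SE 0.43). CNTN6 read 6.82, 6.79 and 6.70 under placebo and 6.88, 7.97 and 7.46 under estrogen, a difference of 0.66 (SE 0.34). Under E+P it differed by -0.11 and under P by 0.10. CNTN3 (0.21, -0.02 and -0.13) and CNTN5 (0.13, -0.11 and 0.26) differed by less than their SEs of 0.30 and 0.27. CNTN4 was too dim to test, with a mean log2 of 2.36. Of the 4 tested contactins, 3 had a higher mean than placebo under E, 1 under E+P and 2 under P, against 48.7%, 47.9% and 46.7% of all probe sets.

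The juxtaparanodal list holds the potassium channels and the scaffolds that Caspr2 assembles, and 8 of its 12 genes were tested. Their median difference was 0.06 under E, 0.02 under E+P and -0.02 under P. KCNA2, a Shaker-type channel subunit of juxtaparanodes, differed by 0.22, 0.03 and 0.15 (SE 0.24). KCNA1, its usual companion, was too dim for the test, with group means of 4.48 under placebo, 5.58 under E, 5.43 under E+P and 6.95 under P. EPB41L3, the cytoskeletal adaptor that binds the tail of Caspr2, differed by 0.01, -0.15 and -0.04 (SE 0.15). The dim KCNA1 was higher than placebo on average under every regimen, with no test.

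Of the 9 genes of the neurexin and neuroligin list, 4 were tested. NLGN1, a postsynaptic partner of neurexins, differed by 0.11, -0.17 and 0.15 under E, E+P and P (SE 0.16). CASK, a scaffold kinase that binds neurexin tails, differed by -0.04, 0.27 and 0.02 (SE 0.27). The medians of the list were 0.05, 0.09 and -0.04.

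All 12 genes with a probe set of the list for nodes and the axon initial segment were tested, with medians of 0.02, -0.07 and -0.11. ANK3, the ankyrin that anchors sodium channels there, differed by -0.04, -0.19 and -0.12 (SE 0.17). Among the transcription factors tied to CNTNAP2, FOXP2, a repressor that binds the gene in human neurons, read 7.37, 7.23 and 6.70 under placebo. With estrogen and progesterone it read 6.60, 6.35 and 4.72, all below the placebo arrays, as in 5.84% of all probe sets. The difference of -1.21 (SE 0.48) did not pass the threshold, and its other tested probe set differed by 0.14. TCF4, a basic helix-loop-helix factor, differed by 0.11, 0.02 and -0.35 (SE 0.24), and the list medians were 0.10, 0.02 and -0.30.

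**Figure D4:**
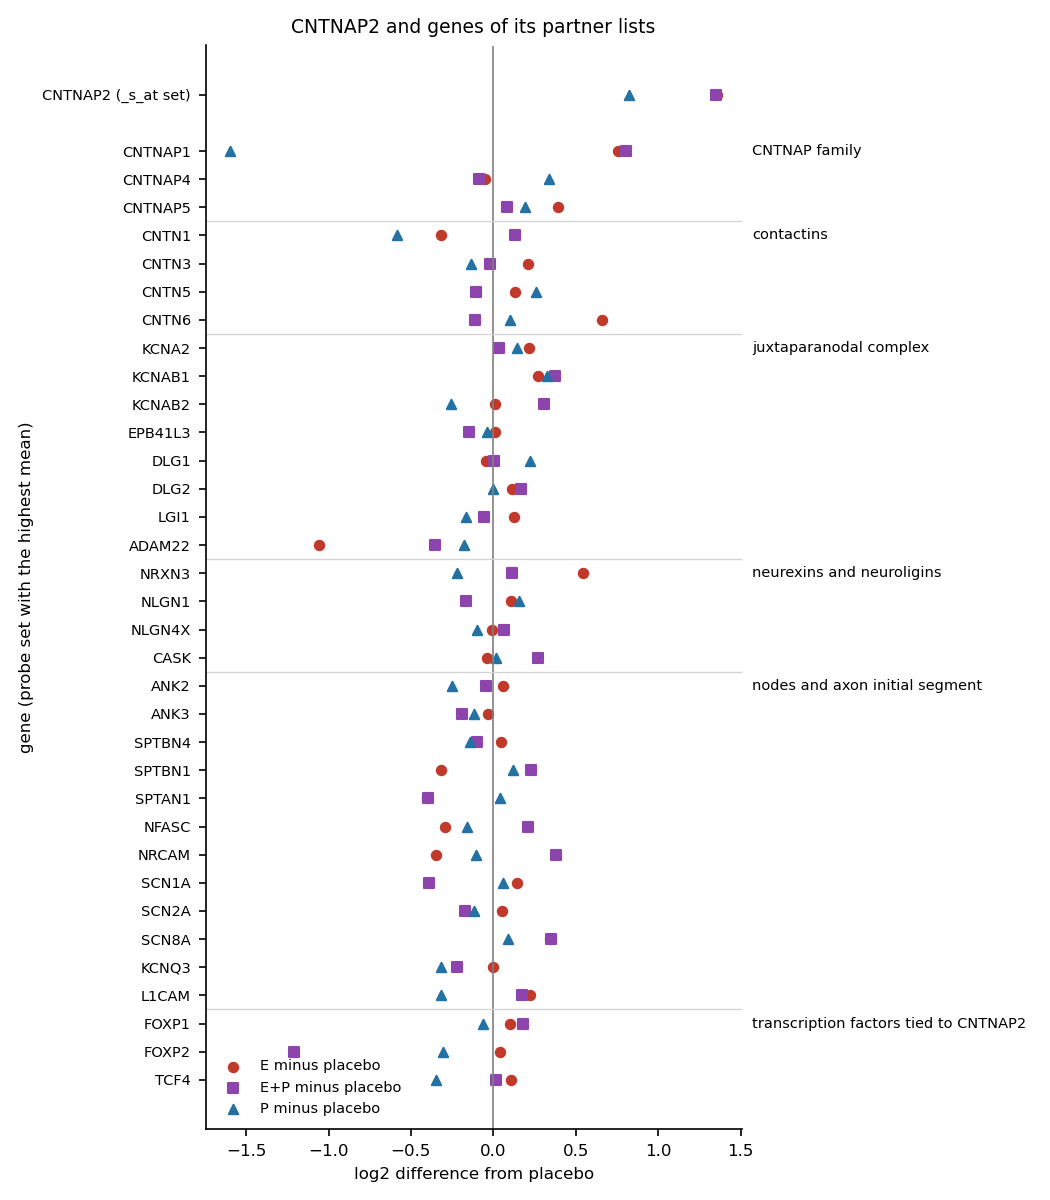
Log2 difference from placebo (horizontal axis) of the leading CNTNAP2 probe set and of the genes of the 6 partner lists, on each gene's brightest probe set, under estrogen (E), estrogen and progesterone (E+P) and progesterone (P). Partner genes scatter around 0, from -1.60 for CNTNAP1 under P to 0.81 for CNTNAP1 under E+P.

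The named genes whose values were most like the leading CNTNAP2 probe set over the 12 arrays were listed by Pearson correlation, as a description. The 12 arrays share the separation of placebo from hormone, which enters every such correlation. The most like was ACTL6B, a neuronal subunit of the BAF chromatin-remodelling complex, with r = 0.87. Its group means were 6.94 under placebo, 7.47 under E, 7.38 under E+P and 7.31 under P, and 9 of 9 hormone arrays lay above placebo. The next were RBFA (r = 0.85), RMND1, ASRGL1, LIN7A and ST8SIA1 (r = 0.79 each), RBM17 and ASL (0.78 each), and PPP1R16A and AFDN (0.77 each). LIN7A, a scaffold protein that binds CASK, was 0.68, 0.60 and 0.50 above placebo under E, E+P and P, with 7 of 9 hormone arrays above the placebo range. ASL, the enzyme that splits argininosuccinate into arginine and fumarate, also had all 9 hormone arrays above placebo. Over all probe sets tested, 0.269% had all 9 above. These genes were picked by likeness to a set chosen for that separation, so their counts follow in part from the pick.

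The most opposite patterns belonged to LGR5, a receptor for R-spondins (r = -0.85), DUSP1, a phosphatase of MAP kinases (-0.83), RABL3, SLC2A10 and CYBB (-0.82 each). DUSP1 differed from placebo by -0.44 under E, -0.63 under E+P and -0.45 under P. For DUSP1, 9 of 9 hormone arrays lay below the placebo arrays, as in 0.265% of all probe sets tested, and this too follows in part from the pick. Of these 15 genes, 4 were among the first 10 or the last 5 by Spearman correlation as well, namely ACTL6B, ASRGL1, LGR5 and CYBB. Other tested probe sets of these genes were often unlike CNTNAP2. Those of LIN7A had r from -0.08 to 0.62 and those of RBM17 from -0.05 to 0.60. RBFA had -0.12 and 0.04, RMND1 0.02, ASRGL1 0.15, AFDN -0.11, LGR5 0.01, CYBB 0.06 and RABL3 -0.20 and 0.23.

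Genes beside CNTNAP2 were identified by their order in the RefSeq annotation of the assembly T2T-MMU8v2.0, used for names and order only. EZH2 had no probe set with that name, and NOBOX and C3H7orf33 were too dim to test. ARHGEF5, a guanine exchange factor, differed from placebo by 0.34 under E, -0.11 under E+P and -0.14 under P (SE 0.25). The 3 tested probe sets of CUL1, a scaffold of ubiquitin ligases, differed by -0.04 to 0.18. None of these neighbours passed the threshold.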

How the data were processed

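The data are the intensities deposited by the authors for 12 Affymetrix rhesus arrays, 1 per monkey, 3 per group. Per the labels' protocols, RNA was extracted with Trizol and Qiagen columns and biotin-labelled with an Enzo kit. The authors' values are linear intensities scaled so that each array has a trimmed mean of 200.0 (2% removed at each end, as found in the values); the software that made them was not given in the sources used here. An array design limits precision by its number of arrays, and the labels do not say whether monkeys shared an extraction or hybridization day.

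Of 52865 probe sets, 99 controls were removed. Of the 52766 left, 24956 had 1 gene symbol in the platform annotation, 361 several and 27449 none; sets with several were not named. Intensities were floored at the 5th percentile (4.99), converted to log2 and quantile normalized, because array medians differed by over 0.15 log2 (6.15 to 6.62). Probe sets with a mean below 6.31 log2 (an intensity of 79.5) were left out, which kept 26383. Group differences were fitted with limma 3.58.1 in R 4.3.3 (lmFit and eBayes, 8 residual and 3.54 prior degrees of freedom, 7 contrasts). P-values were adjusted by Benjamini-Hochberg over all probe sets tested, with a threshold of 0.05, and the fit was tested on simulated data. An exact permutation test of 3 arrays against 3 cannot go below p = 0.1, so single values were not tested that way. Correlations between probe sets used exact permutations within groups (numpy 2.4.6, Python 3.11.15), and figures were drawn with matplotlib 3.10.9.

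The leading probe set is the CNTNAP2 set with the lowest p for estrogen against placebo. Its differences, between hormone regimens too, are printed without a test, since its arrays took part in the choice. The members, the partner and marker lists, and the settings were chosen with earlier results of these data known, so no list is independent evidence. Genes named are all CNTNAP and contactin members, members of the other partner lists that passed the threshold, a fixed set (CASK, KCNA1, KCNA2, EPB41L3, NLGN1, FOXP2, TCF4, ANK3 and 1 gene not reported here), the 10 named genes most like CNTNAP2 and the 5 most opposite. Neighbours were chosen by position, and TPH2, FEV and the marker genes for the tissue check.

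Groups share replicate numbers in the labels. Deviations of same-numbered arrays from their group means correlated at 0.103 to 0.274 in placebo and E+P and 0.142 to 0.507 in E and E+P. The correlations were 0.024 to 0.277 in placebo and E, and -0.260 to 0.030 in pairs with P. Differently numbered arrays were not compared, so these correlations do not show a pairing, and no label states one. The first arrays of placebo, E and E+P also stood apart together on the first principal component.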

Additional observations from a re-analysis of the deposited data

How the results depend on the processing

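There were 23 alternatives in all, 12 of which left out 1 array; 20 or 21 of them applied to each CNTNAP2 difference. In the comparisons tested, no CNTNAP2 probe set and no partner gene passed the threshold under any of these settings. For the leading probe set the estrogen difference ranged from 1.26 to 1.40 over scaling, filter, floor, fit and block, and from 1.24 to 1.45 with 1 array left out. The E+P difference ranged from 1.30 to 1.44 and from 1.26 to 1.42. The progesterone difference ranged from 0.71 to 0.85, and from 0.56 without the first progesterone array to 1.05 without the third. Without the first arrays of placebo, E and E+P the 3 differences were 1.26, 1.44 and 0.85. Between regimens the leading set gave 0.31 to 0.79 for E+P minus P and 0.31 to 0.80 for E minus P with 1 array left out, each lowest without the third and highest without the first progesterone array.

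With the replicate number as a block, the MmuAffx S1 set differed by 1.21 for E minus placebo (limma adjusted p = 0.9997); the block changed no CNTNAP2 call.

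Some signs turned, and the cause was not tested. Of 102 differences of partner genes from placebo, 52 changed sign with some array left out, most by less than the spread between arrays. NLGN4X under estrogen was 0.14 with median alignment and 0.10 with the deposited scaling, against -0.01. Without the first arrays of placebo, E and E+P, SPTAN1 under E+P was 0.16 and KCNQ3 0.012, against -0.40 and -0.22. SCN8A under P was -0.40 without the first progesterone array and 0.38 without the second, against 0.09. Some list medians moved as well, these among them. For nodes and the axon initial segment, E+P was 0.11 over all tested probe sets of each gene, against -0.07. Its P median was -0.36 without the first progesterone array, against -0.11. With the filter at the 75th percentile the contactin medians were -0.32 under E and -0.58 under P, against 0.17 and -0.02.

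Counts over all probe sets moved more. For progesterone against placebo 35 became 20 with the block, 0 when only the compared arrays were fitted and 54 without a floor, and 5 to 55 with 1 array left out. For E+P minus P 22 became 4 with the filter at the 75th percentile and 0 to 47 with 1 array left out. For E minus P 35 became 19 with the block, 15 with that filter and 21 without a filter, the most under any setting was 72, and leaving out 1 array gave 10 to 58. The dim MmuAffx A1 set, with a mean inside the range of the bacterial control sets but above their median, is limited by signal.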

Other observations

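Further probe sets of the partner genes, outside the brightest set that was used for each, gave values of their own; these genes were singled out after their values were seen. KCNAB1 is a beta subunit of Shaker-type potassium channels and part of the complex that Caspr2 organizes. It was 0.27, 0.37 and 0.32 above placebo under E, E+P and P on its brightest set (SE 0.17). On that set 8 of 9 hormone arrays lay above the placebo range, and 1.22% of all probe sets tested had at least 8 of 9 above. The placebo arrays of KCNAB1 read 8.49, 8.88 and 8.75 log2. Its other set differed by -0.03, -0.10 and 0.29. DLG2, a scaffold protein of synapses and juxtaparanodes, differed by 0.11, 0.17 and 0.00 on its brightest set, and by 1.44, 1.60 and 1.52 on a dimmer one, where 3 of 9 hormone arrays lay above placebo. As for CNTNAP2, the value depended on which probe set of the gene was read.

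Among cell type markers, CA8, a carbonic anhydrase-related protein of Purkinje cells, had 8 of 9 hormone arrays above placebo and differences of 0.74, 0.32 and 0.52 (SE 0.19). It correlated with the leading CNTNAP2 set at r = 0.62 over the 12 arrays. Over all probe sets tested, 1.22% had at least 8 of 9 above. CA8 did not pass the adjusted threshold of limma in any comparison, and it was singled out after its values were seen. The mean of 5 oligodendrocyte markers was 11.68 to 11.81 under placebo, 11.29 to 11.69 under E, 11.64 to 11.68 under E+P and 11.44 to 11.84 under P. Astrocyte markers read 10.69 to 11.26, 11.19 to 11.25, 11.09 to 11.48 and 11.04 to 11.18 in the same order, and microglia markers 8.57 to 8.98, 8.69 to 8.83, 8.45 to 8.70 and 8.68 to 8.99. Ependymal markers read 7.15 to 7.32, 7.22 to 7.56, 6.95 to 7.75 and 6.42 to 7.31, and serotonin neuron markers 8.48 to 9.03, 8.67 to 8.98, 8.68 to 9.12 and 7.83 to 8.66.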
